A study of Mus musculus with 4 samples.

Results

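Adhesion G protein-coupled receptors were examined in naive microglia, macrophages that live in brain tissue. The family was taken as every gene row whose symbol starts with Adgr, a subfamily letter and a number, which gave 28 of the 56832 gene rows, in 8 subfamilies. They comprise 27 receptor genes annotated as protein-coding and the pseudogene Adgrd2-ps. The cells came from brains of female C57BL/6 mice labelled as having had no intervention, which the series describes as non-transplanted littermates of animals given a blood stem cell graft and a CSF1R inhibitor. Sorting kept CD11b+ cells with low or intermediate CD45, and total RNA was amplified into 4 libraries, replicates 1 to 4 of 1 group. The labels give no age and leave unsaid whether separate animals stand behind the replicates, so p-values measure only the spread between these libraries, which may be technical. Grafted groups were not analysed here.

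Adhesion GPCRs join a long extracellular region to a membrane-spanning receptor core. Most carry a GAIN domain, which can cut the receptor at a site close to the membrane, and the stretch just behind that site can act as a tethered agonist. They signal through heterotrimeric G proteins. On macrophages the best known member is F4/80, the product of Adgre1, an antigen by which mouse macrophages are commonly identified. GPR56, the product of Adgrg1, binds collagen III and transglutaminase 2 and has been linked in mouse microglia to the pruning of synapses.

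Libraries held 20360121 to 23292655 reads assigned to genes, and levels are given as CPM, a gene's reads scaled to that total. All 10 microglia markers stood at 1 CPM or more in every library, with Tmem119 at 3986 to 6287 CPM. Replicates 2 and 3 stood apart in immediate early genes, whose list of 12 took 5.62% and 4.92% of counts there, against 0.472% and 0.511% in replicates 1 and 4. Replicate 4 held the fewest genes with a count, 13944, and replicate 2 the most, 18978. Replicate 4 was also poorer in long transcripts. Its median log2 difference from the mean of the other libraries was -1.27 over the 1139 genes with more than 10000 bases of exon and 0.35 over the 2301 genes with at most 2000. The part of these library differences in the results below was not tested.

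**Figure D1:**
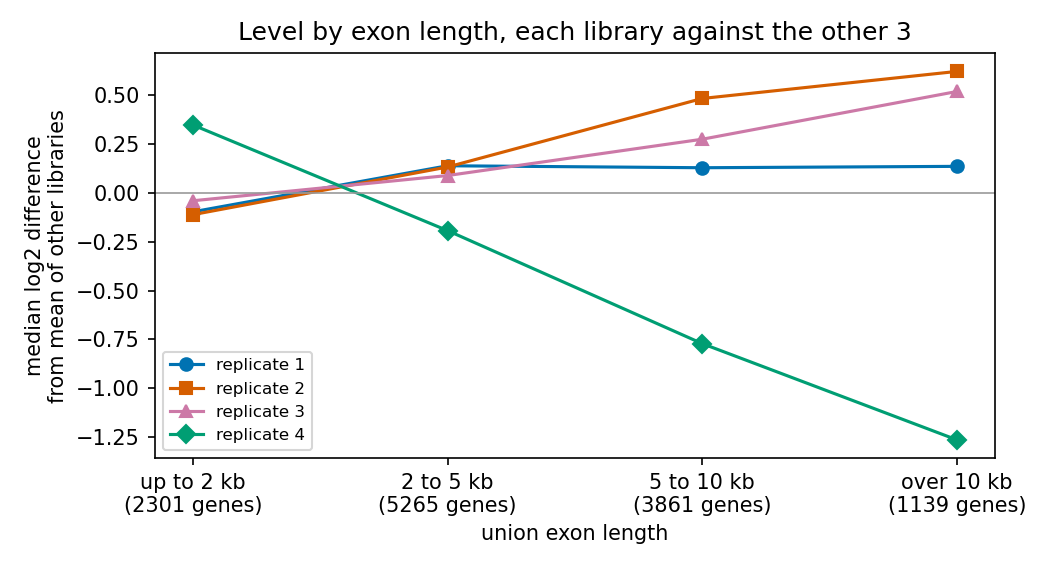
Median log2 difference of each library from the mean of the other 3, on log2(CPM + 0.5), for genes averaging at least 1 CPM, in 4 classes of union exon length (2301, 5265, 3861 and 1139 genes). Replicate 4 (green diamonds) lies at 0.35 for the shortest class and at -1.27 for the longest, while replicates 1 to 3 lie above 0 for the longest.

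Adgrg1 lies between the related genes Adgrg5 and Adgrg3 on mouse chromosome 8, with no other protein-coding gene between them in the annotation used. GPR97, the product of Adgrg3, is known from neutrophils. The 3 genes face the same way, yet only Adgrg1 passed 3 counts in any library. Their promoter windows are shown because these neighbours differed so much in level. Each runs from 250 bases before to 50 bases after an annotated start on the + strand of GRCm38.p6, from RefSeq, with Adgrg1 listed at 2 starts. Capitals mark GAGGAA or its reverse complement TTCCTC, a core shared by many sites of the macrophage factor PU.1.
Adgrg5 chr8:94923444-94923743: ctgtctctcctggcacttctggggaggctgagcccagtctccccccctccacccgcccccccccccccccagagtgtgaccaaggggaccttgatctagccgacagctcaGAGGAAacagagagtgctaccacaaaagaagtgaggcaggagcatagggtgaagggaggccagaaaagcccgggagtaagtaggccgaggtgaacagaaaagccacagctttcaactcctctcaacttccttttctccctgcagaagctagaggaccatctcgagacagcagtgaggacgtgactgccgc
Adgrg1 chr8:94976859-94977158: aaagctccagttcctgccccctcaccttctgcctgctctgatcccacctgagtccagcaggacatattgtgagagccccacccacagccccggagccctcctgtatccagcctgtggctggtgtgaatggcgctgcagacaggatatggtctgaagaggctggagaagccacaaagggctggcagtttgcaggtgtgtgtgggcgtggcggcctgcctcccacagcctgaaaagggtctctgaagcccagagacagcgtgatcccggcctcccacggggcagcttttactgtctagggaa
Adgrg1 chr8:94984149-94984448: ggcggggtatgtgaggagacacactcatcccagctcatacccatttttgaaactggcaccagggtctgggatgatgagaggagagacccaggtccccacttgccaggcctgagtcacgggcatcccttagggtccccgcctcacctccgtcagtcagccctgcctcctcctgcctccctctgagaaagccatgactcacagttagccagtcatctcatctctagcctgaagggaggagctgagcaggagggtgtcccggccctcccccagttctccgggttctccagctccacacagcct
Adgrg3 chr8:95017442-95017741: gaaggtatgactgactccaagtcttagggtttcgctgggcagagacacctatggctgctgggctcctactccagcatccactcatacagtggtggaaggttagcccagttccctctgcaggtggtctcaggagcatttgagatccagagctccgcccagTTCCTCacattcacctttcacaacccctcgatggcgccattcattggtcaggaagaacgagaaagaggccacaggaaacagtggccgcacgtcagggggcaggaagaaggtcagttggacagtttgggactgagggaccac
The motif stood in 1 place each in the windows of Adgrg5 and Adgrg3 and in neither window of Adgrg1. Of all 32851 windows listed, 28.3% held it, and 10 of the 24 windows listed for 20 of the family's genes did. Which of the 2 starts of Adgrg1 was used cannot be read from counts per gene.

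The family's transcripts were almost wholly those of Adgre1 and Adgrg1. Together they made up 95.8%, 94.9%, 94.5% and 97.7% of the family's counts in replicates 1 to 4, and the 26 other rows the remaining 4.28% ± 1.43 (SD, n = 4). The summed level of all 28 rows was 1376, 1262, 996 and 1133 CPM, or 1192 ± 164 CPM. In a bulk sample, fewer cells of a type and less RNA per cell cannot be told apart.

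At 1 CPM or more in every library stood 4 of the 28 rows, Adgre1, Adgrg1, Adgra3 and Adgre5. That is 14.3% of the family, against 14.8% of all gene rows and 35.5% of rows annotated as protein-coding. The family's share was thus near that of all rows and below that of protein-coding rows, to which every member but Adgrd2-ps belongs. At 100 CPM or more in every library were 2 of the 28, or 7.14%, against 2.01% of all rows and 5.29% of protein-coding rows. At 0 counts in every library were 11 of the 28, or 39.3%, against 61.9% of all rows and 33.9% of protein-coding rows. Among rows with a count, the median level was 0.805 CPM for the 17 of the family, 3.02 CPM for all 21681 rows and 14.4 CPM for the 13995 protein-coding rows. Most members with reads were thus low, and a pair of them was high.

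**Figure D2:**
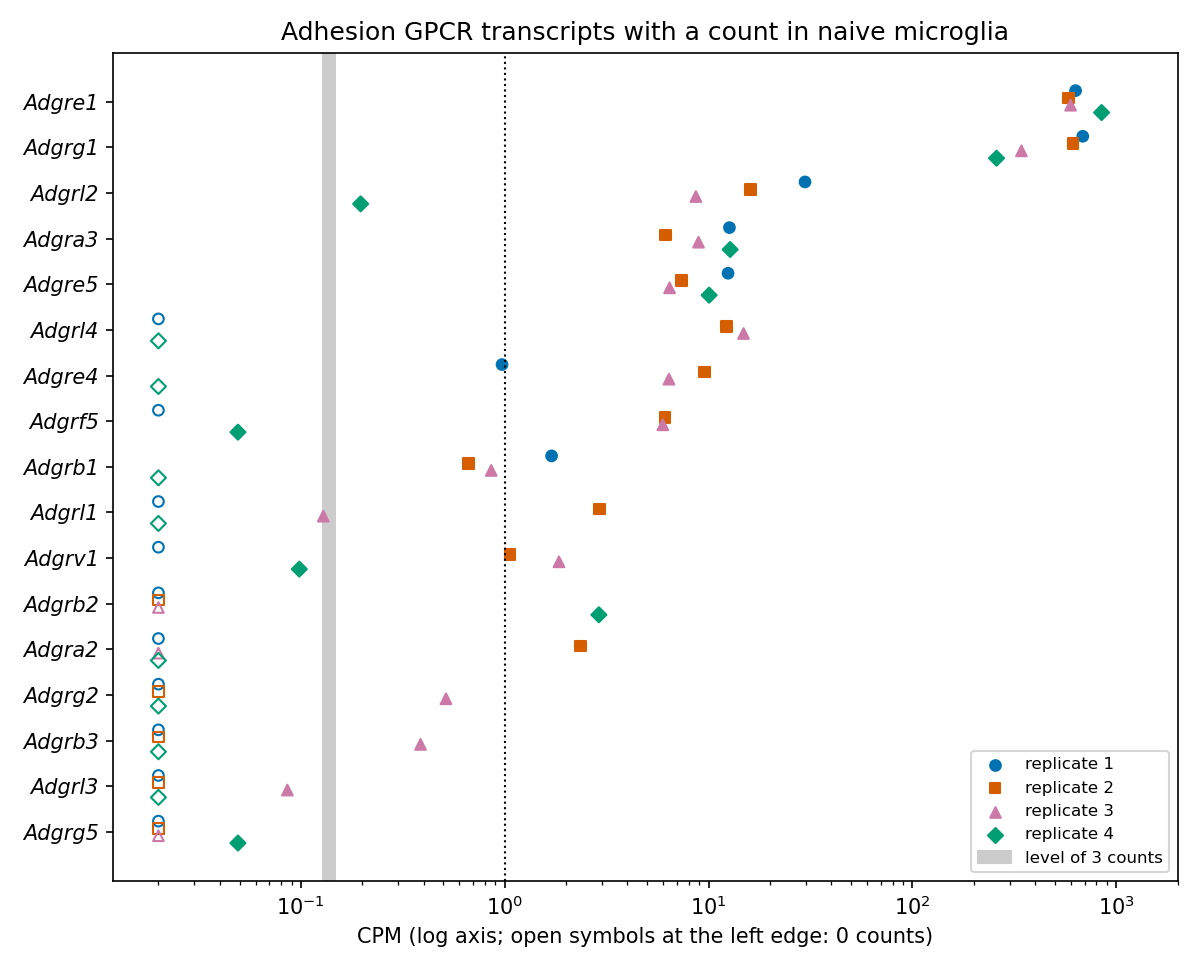
CPM on a log axis of the 17 family members with a count, 1 symbol per library, with 0 counts drawn open at the left edge. The grey band is the level of 3 counts (0.129 to 0.147 CPM) and the dotted line is 1 CPM. Adgre1 and Adgrg1 lie above 250 CPM in every library and no other member passes 30 CPM.

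Adgre1 was the highest member in 2 libraries by CPM and in all 4 per kb of exon. It had 632, 584, 598 and 848 CPM in replicates 1 to 4, a mean of 666 ± 124 CPM (SD, n = 4), and ranked 176th among all gene rows by mean level. Replicate 4 was the highest, and the other libraries lay within 50 CPM of each other. Without replicate 4 the mean was 605 CPM (n = 3). Exact Poisson intervals at 95%, which cover counting error only, were narrow beside this spread, at 836 to 861 CPM in replicate 4 and 574 to 594 CPM in replicate 2.

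Adgrg1 had 686, 613, 343 and 259 CPM in replicates 1 to 4, with a mean of 475 ± 206 CPM (SD, n = 4), and ranked 272nd. It was high in replicates 1 and 2 and low in replicates 3 and 4, with a 2.65-fold range, against 1.45-fold for Adgre1. With 5421 bases of exon, Adgrg1 falls in a length class where replicate 4 had a median log2 difference of -0.77 from the other libraries. For the class of Adgre1, with 3238 bases, that difference was -0.19. Members in the class of Adgrg1 did not all run low in replicate 4. Adgra3, with 8113 bases, and Adgrb2, with 6487, were highest there, at 12.8 and 2.90 CPM. Adgra2, Adgrb1, Adgrl1 and Adgrg2, also of that class, had 0 counts there, and Adgrf5 had 1. The immediate early genes were high in replicates 2 and 3. The part of these library differences in the spread of Adgrg1 was not tested. Neither gene passed a test of its spread against genes of like level. edgeR's F test of each gene's spread against the trend, with Benjamini-Hochberg adjustment, gave adjusted p = 0.944 for Adgrg1, with 0.826 to 0.955 under the alternatives run, and adjusted p = 0.999 for Adgre1. Relative to the trend, the log2 dispersion was 1.85 for Adgrg1 and -1.78 for Adgre1.

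Of the 4 members that passed the filter on low counts, 0 varied beyond the trend in that test, and 0 of 4 had an unadjusted p under 0.05. The test called 0 of all 9075 genes, or 0%, with 390 under an unadjusted p of 0.05, and DESeq2 marked 0 dispersion outliers. Because no gene was called, the early response genes of replicates 2 and 3 included, this count does not set the family apart. The other 24 members did not enter the test. On simulated data with every gene's spread set at the trend of these libraries, the test missed many large changes. It recovered 0% of 4-fold and 49% of 16-fold changes set between libraries. The simulation left out the scatter of real genes around the trend, so these shares need not hold for the libraries themselves. Not passing the test thus does not show that a gene was stable.

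The order of the pair depended on the measure. Per kb of exon, Adgrg1 had 127, 113, 63.3 and 47.8 CPM per kb and Adgre1 had 195, 180, 185 and 262 CPM per kb in replicates 1 to 4. The log2 ratio of Adgrg1 over Adgre1 per kb was -0.63, -0.67, -1.55 and -2.46, a mean of -1.32 ± 0.86 (SD, n = 4), below 0 in 4 of 4 libraries. Flipping signs over libraries, an exact two-sided permutation test, gave p = 0.125, the smallest value 4 libraries allow, and adjusted p = 0.179 over the 10 gene pairs compared. Without a length correction the mean was -0.58, with Adgrg1 lower in 2 of 4 libraries. Per kb of coding sequence it was -0.15, again lower in 2 of 4. The union of exons was 5421 bases for Adgrg1 and 3238 for Adgre1, and the coding parts 2076 and 2793 bases.

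**Figure D3:**
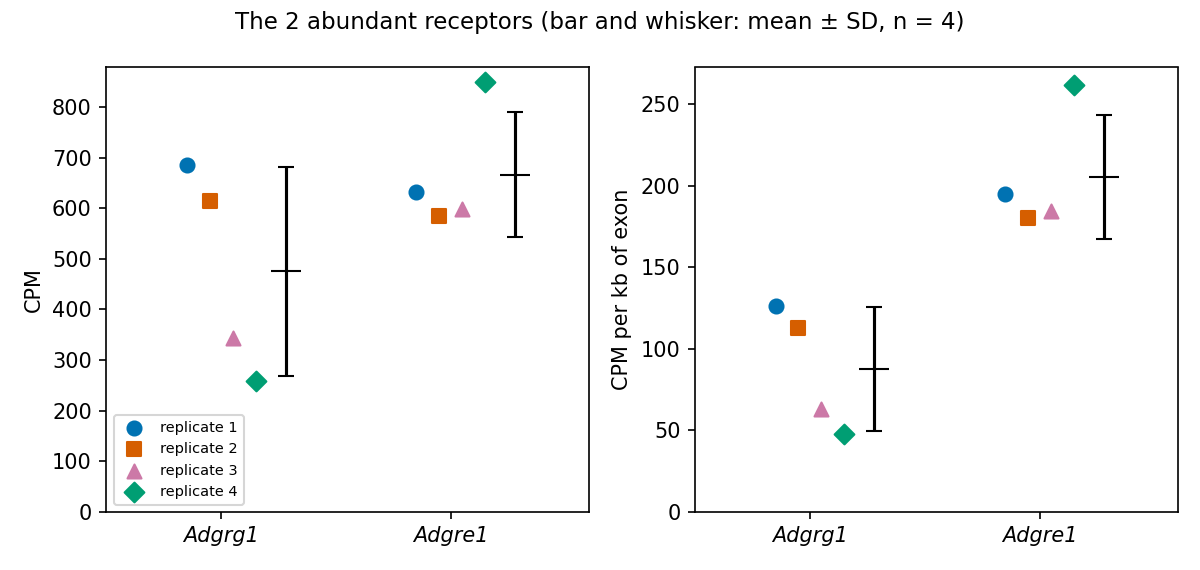
Levels of Adgrg1 (left) and Adgre1 (right) in each library in CPM (first panel) and CPM per kb of exon (second panel), with the mean and SD of 4 libraries beside the points. The genes overlap in CPM and do not overlap per kb, where Adgrg1 lies at 47.8 to 127 and Adgre1 at 180 to 262.

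Within the E subfamily, whose members carry EGF-like repeats, Adgre1 stood far above its relatives. Adgre5 encodes CD97, a leukocyte receptor that binds CD55. It had 12.5, 7.35, 6.44 and 10.1 CPM in replicates 1 to 4, a mean of 9.08 ± 2.73 CPM (SD, n = 4), with replicates 1 and 4 the higher. The log2 ratio of Adgre1 over Adgre5 per kb of exon averaged 6.44 ± 0.39 (SD, n = 4), above 0 in 4 of 4 libraries, with p = 0.125 and adjusted p = 0.179 in the exact permutation test. In the annotation used, other genes' exons, mainly those of Ddx39 on the opposite strand, covered 24.6% of the exon bases of Adgre5, so its counts are uncertain where the counting used no strand.

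Adgre4 is a mouse macrophage receptor with EGF-like repeats. It had 0.971, 9.57, 6.40 and 0 CPM in replicates 1 to 4, from 20, 216, 149 and 0 counts. The reads thus lay mostly in replicates 2 and 3, the libraries richer in border-associated macrophage markers, whose 8 genes summed to 294, 794, 862 and 441 CPM. Of those markers 7 reached 1 CPM in every library, and replicates 2 and 3 were the highest libraries for 6 of the 8. Lyve1, 1 of these 6, stood at 0.146, 39.5, 44.7 and 0.147 CPM. Cd163, at 16.2, 22.2, 24.3 and 32.6 CPM, and Ms4a7, at 50.6, 58.7, 71.4 and 83.5 CPM, were instead highest in replicate 4, where Adgre4 had 0 counts. The part of such cells in the reads of Adgre4 was not tested. The order of Adgre5 and Adgre4 per kb changed between libraries, with Adgre5 higher in 2 of 4.

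Adgra3, which encodes the orphan receptor GPR125, had 12.7, 6.16, 8.93 and 12.8 CPM in replicates 1 to 4, a mean of 10.1 ± 3.20 CPM (SD, n = 4). It differed little between replicates 1 and 4, whose Poisson intervals of 11.2 to 14.3 and 11.3 to 14.4 CPM overlap, and was lowest in replicate 2. Adgra2, which encodes GPR124, a receptor for Wnt7 signals in brain endothelium, had 2.35 CPM from 53 counts in replicate 2 and 0 counts in the other libraries. Adgra1 had 0 counts in every library. The 8 mural and fibroblast markers summed to 23.3, 94.6, 88.2 and 102 CPM in replicates 1 to 4, with 0 of them at 1 CPM in every library. Replicates 2 and 3 were the highest libraries for 5 of these 8 markers and replicates 1 and 4 for 0. Of 9 endothelial markers, replicates 2 and 3 were the highest libraries for 7. The share over all gene rows was not computed. Among the mural and fibroblast markers Pdgfrb, at 0, 3.01, 0.215 and 0.0491 CPM, was highest in replicate 2. Rgs5, at 0.146, 59.6, 53.0 and 72.3 CPM, and Acta2, at 0.0971, 11.9, 14.9 and 28.5 CPM, were highest in replicate 4. The part of mural, fibroblast or endothelial cells in the reads of Adgra2 was not tested. Adgra3 exceeded Adgra2 in 4 of 4 libraries.

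The latrophilins, adhesion receptors for teneurins and FLRT proteins at synapses, differed widely between libraries. Adgrl2 had 29.7, 16.1, 8.67 and 0.196 CPM in replicates 1 to 4, a 151-fold range, and only 4 counts in replicate 4. Its mean was 13.7 ± 12.5 CPM (SD, n = 4), and 18.2 ± 10.7 CPM without replicate 4 (n = 3). It has 14198 bases of annotated exon, in the length class that replicate 4 held least of. Adgrl1 had 2.92 CPM in replicate 2, 3 counts in replicate 3 and none elsewhere, and 15.6% of its exon bases are shared with genes on the opposite strand. Adgrl3, a neuronal member, had 2 counts in all. The 8 neuron markers summed to 12.5, 19.4, 37.1 and 21.4 CPM in replicates 1 to 4, and 1 of them reached 1 CPM in every library. That marker, Camk2a, had 12.3, 6.87, 16.5 and 21.3 CPM, nearly all of the sum in replicates 1 and 4. Of the 8 markers, 5 passed 3 counts in replicates 2 and 3 only, against 3.68% of all gene rows and 6.31% of protein-coding rows. The part of neurons in the latrophilins' reads was not tested.

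Adgrl4 encodes ELTD1, a receptor of blood vessel endothelium, and lies next to Adgrl2 on chromosome 3. It had 0, 12.3, 14.9 and 0 CPM in replicates 1 to 4, from 0, 277, 346 and 0 counts, so its reads lay in replicates 2 and 3. Adgrf5 encodes GPR116, a receptor of lung epithelium and endothelium, and split the same way, with 0, 6.11, 5.97 and 0.0491 CPM from 0, 138, 139 and 1 counts. Adgrv1, a very large receptor of inner ear hair cells, had 0, 1.06, 1.85 and 0.0982 CPM. These 3 of 28, or 10.7%, were the members with more than 3 counts in replicates 2 and 3 only, against 3.68% of all gene rows and 6.31% of protein-coding rows. Replicates 2 and 3 held more genes with a count, 18978 and 18431, than replicates 1 and 4, with 14850 and 13944. A library at 0 counts allows up to 0.147 CPM.

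Most endothelial markers were also highest in those libraries. Of the 9, replicates 2 and 3 were the highest libraries for 7 and replicates 1 and 4 for 1, although none was over 3 counts in replicates 2 and 3 only. This was not particular to endothelial markers. Replicates 2 and 3 were also highest for 6 of 8 oligodendrocyte, 6 of 8 border-associated macrophage and 5 of 8 neuron markers. They were so for 0 of 10 microglia and 0 of 8 neutrophil markers. The share over all gene rows was not computed. The list summed to 101, 203, 165 and 123 CPM in replicates 1 to 4, and 3 of its genes reached 1 CPM in every library. Kdr had 4.37, 14.8, 6.78 and 0.0491 CPM, and Cdh5 had 0, 1.77, 0.0859 and 0 CPM. Pecam1, the 1 marker highest in replicates 1 and 4, had 30.8, 12.3, 20.9 and 45.7 CPM. Astrocyte markers summed to 325, 443, 517 and 257 CPM over 8 genes, 6 of them at 1 CPM in every library. The part of such cells in these receptors' reads was not tested.

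**Figure D4:**
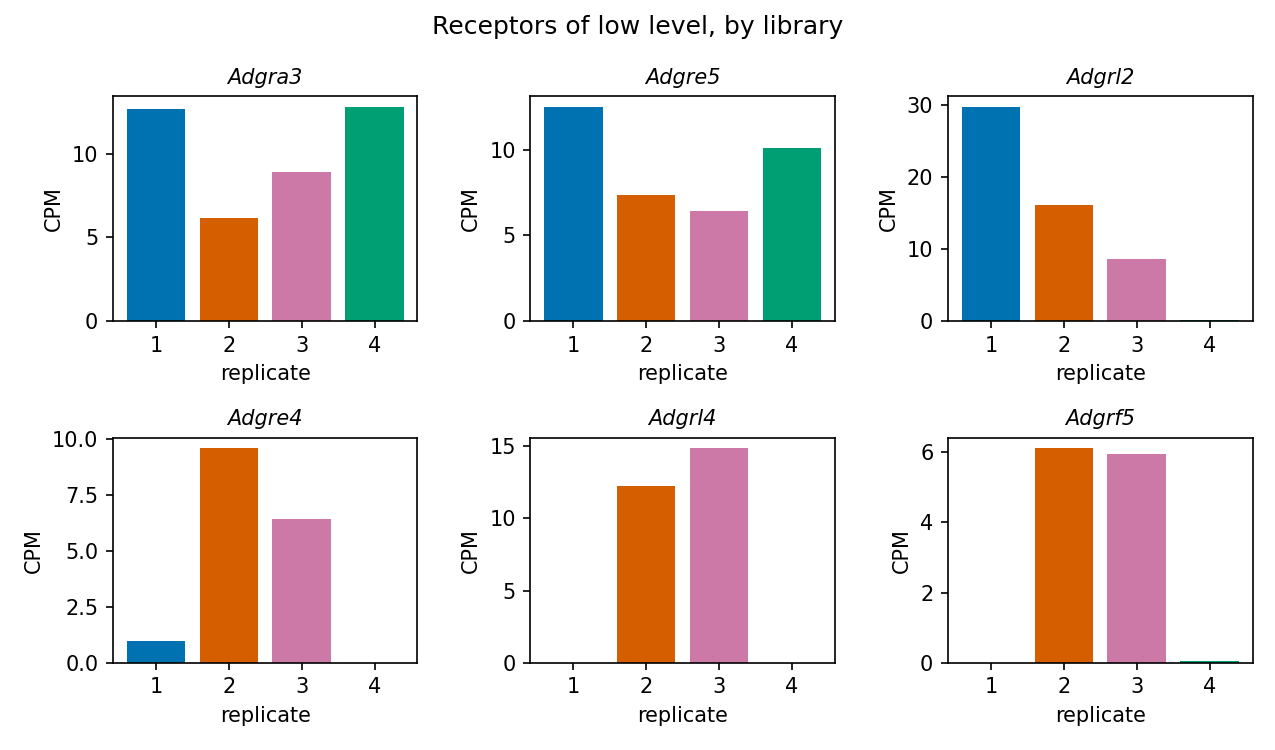
CPM by library, on linear axes of their own from 0, of 6 receptors of low level. Adgra3 and Adgre5 lie between 6.16 and 12.8 CPM in every library, Adgrl2 has 0.196 CPM in replicate 4, and Adgrl4 and Adgrf5 have more than 1 count in replicates 2 and 3 only.

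The B subfamily, which holds the brain-specific angiogenesis inhibitors, was near the detection limit. Adgrb1, the phosphatidylserine receptor BAI1 that signals to the engulfment proteins ELMO and DOCK, had 1.70, 0.664, 0.859 and 0 CPM in replicates 1 to 4, from 35, 15, 20 and 0 counts. Adgrb2 gave 59 counts, or 2.90 CPM, in replicate 4 and 0 in the others, the reverse of Adgrb1. Adgrb3, a receptor for C1q-like proteins at synapses, gave 9 counts, all in replicate 3. The sum over the subfamily was 1.63 ± 0.95 CPM (SD, n = 4).

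The remaining G members were at or near 0. Adgrg3 had 0 counts in every library although neutrophil markers were present, 8 genes summing to 1481, 282, 269 and 2377 CPM in replicates 1 to 4 and 7 of them reaching 1 CPM in each. The remaining marker, Ly6g, had 2.09, 1.24, 0 and 0 CPM, so it was missing where the sum was highest. Per kb of exon, Adgrg1 was at least 2238-fold higher than Adgrg3 in every library, against a floor of 3 counts per library. Adgrg6, which encodes GPR126, a receptor that Schwann cells need to myelinate, had 0 counts in every library, and Adgrg1 was at least 3964-fold higher per kb. Adgrg5 had 1 count in replicate 4 and 0 in the others, where Adgrg1 was at least 1541-fold higher. Adgrg2, known from the epididymis, had 12 counts in replicate 3 alone, and Adgrg4 and Adgrg7 had none.

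Both D rows, Adgrd1 and Adgrd2-ps, and 4 of the 5 F rows, Adgrf1 to Adgrf4, had 0 counts in every library. Adgrf5 alone of its subfamily had reads, although Adgrf1 is its neighbour on chromosome 17. The cadherin-type receptors Celsr1 to Celsr3, adhesion GPCRs of planar cell polarity whose symbols fall outside the rule, were alike in being near absent. Celsr2 had 95 counts, or 4.21 CPM, in replicate 2 and 0 elsewhere, and Celsr1 and Celsr3 had none.

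Ordered by mean CPM per kb of exon, Adgre1 came first at 206 ± 38.2 and Adgrg1 followed at 87.7 ± 38.1 (SD, n = 4). Adgrg1 was 36.3-fold above the next member, Adgre5, in a comparison of means, and higher in 4 of 4 libraries. From there the order was not stable. Adgre5 at 2.42, Adgrl4 at 1.48, Adgra3 at 1.25, Adgre4 at 1.21 and Adgrl2 at 0.964 CPM per kb each exceeded the next in 2 of 4 libraries. Adgrl2 exceeded Adgrf5, at 0.337, in 3 of 4. Of all 10 gene pairs compared, 7 kept 1 order in 4 of 4 libraries, each with p = 0.125 and adjusted p = 0.179 in the exact permutation test. In 5 of those 7 the lower gene had 0 counts in 2 or more libraries. In 1 of the 5, Adgrl2 over Adgrl1, the higher gene itself had only 4 counts in replicate 4. Per kb that was 0.806 of a floor of 3 counts, so the order there is not resolved. Both genes passed 3 counts in every library only for Adgre1 with Adgre5 and Adgrg1 with Adgre1.

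Of 25 ligands and binding partners, 3 reached 1 CPM in every library and 9 had no counts. The tetraspanins Cd81 and Cd9, membrane partners of GPR56, led with 6587 ± 1804 and 1603 ± 706 CPM (SD, n = 4). Prnp, the prion protein gene whose product activates GPR126, stood at 51.4 ± 13.4 CPM. Tgm2, the transglutaminase that binds GPR56, had 55.3, 128, 74.6 and 0.589 CPM in replicates 1 to 4, far lowest in replicate 4. Cd55, the partner of CD97, had 0, 1.06, 0.472 and 0.0491 CPM, and Col3a1, the collagen that binds GPR56, 0.0485, 0.842, 0 and 0.0982 CPM. The genes C1ql1 to C1ql4, ligands of Adgrb3, had none.

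Genes that act behind the receptors were read against the same background, 14.8% of all rows and 35.5% of protein-coding rows at 1 CPM in every library, and the lists were not tested against each other. Of 10 G protein alpha subunit genes of the Gq, Gi, Gs and Go classes, 6 reached 1 CPM in every library, led by Gna15 of the Gq class at 384 ± 78.0 CPM (SD, n = 4), with Gnai3, Gnai2, Gnas and Gna11 at 151 ± 79.1, 136 ± 42.8, 132 ± 61.2 and 39.3 ± 23.0 CPM and Gnaq between 66.2 and 111 CPM.

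All 6 engulfment genes that BAI1 can use reached 1 CPM in every library, although Adgrb1 itself did not. Rac1 stood at 611 ± 78.0 and Elmo1 at 421 ± 128 CPM (SD, n = 4), Dock2 at 146 ± 84.9, Crk at 70.2 ± 12.9, Elmo2 at 52.5 ± 17.1 and Dock1 at 29.2 ± 5.65 CPM. These proteins also serve other receptors. Of the desensitisation genes 3 of 6 did so, the arrestin genes Arrb2 and Arrb1 at 416 ± 82.8 and 33.4 ± 22.1 CPM and the kinase gene Grk2 at 84.8 ± 27.0 CPM. Of the genes on these lists, 0 passed the edgeR spread test, with the same limit.

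**Figure D5:**
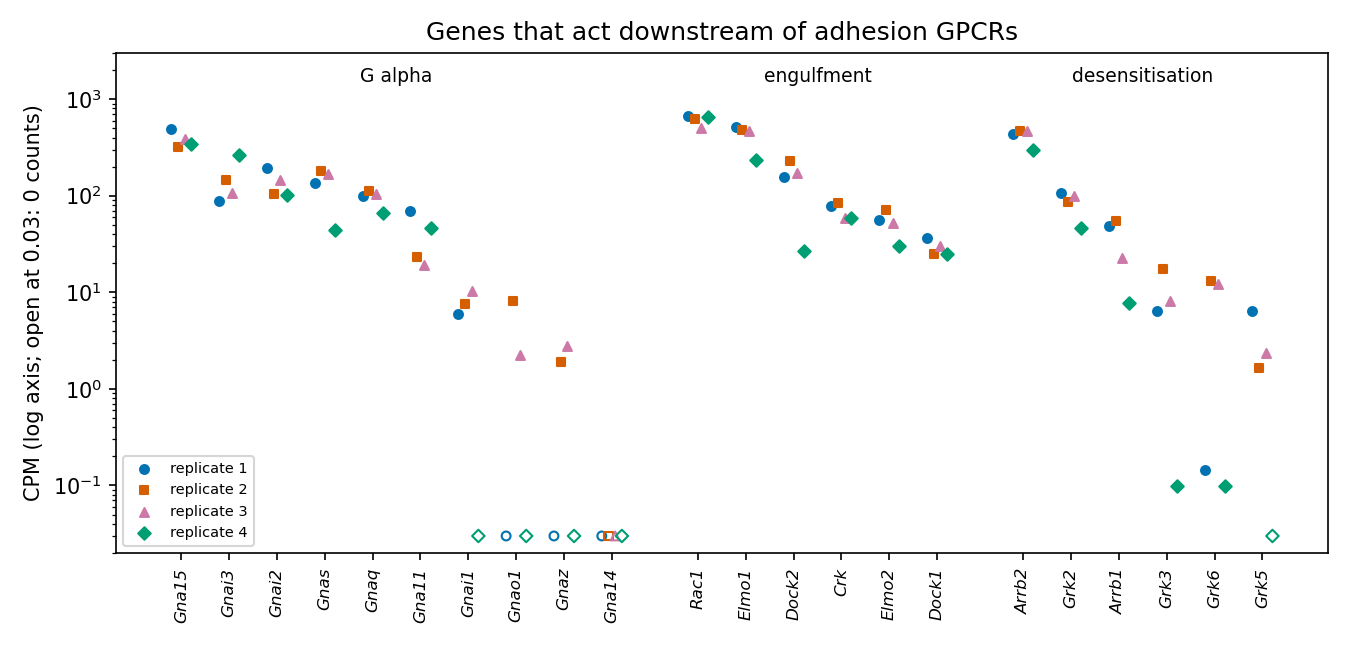
CPM on a log axis of genes that act downstream of adhesion GPCRs, in 3 lists, with 1 symbol per library and open symbols at 0.03 for 0 counts. Gna15, Rac1, Elmo1 and Arrb2 lie above 200 CPM in every library, and Dock2 and Arrb1 are lowest in replicate 4.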

How the data were processed

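RNA of 4 naive microglia libraries was analysed from raw read counts per gene symbol, which the authors deposited as 1 file per library. Per the submitters' processing notes, the tools were HTSeq 0.11.2, STAR 2.7.10a and SAMtools 1.16.1, with the build GRCm39. No source used here gives the annotation, strand setting or read filters. The 5 last rows, which count reads assigned nowhere, 20.8% ± 1.28 (SD, n = 4) of each file's reads, were left out.

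CPM were computed on the total assigned to genes, 20360121 to 23292655 per library, so that 3 counts, the limit a count of 0 allows, are 0.129 to 0.147 CPM. Intervals cover counting error only, since amplified reads are not independent molecules. Exon and coding lengths were unions in GENCODE M21 (GRCm38), matched by symbol for all 28 members and 89.1% of rows. No 2 libraries agreed within sampling noise.

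Spread was tested with edgeR 4.0.16 in R 4.3.3 (filterByExpr with a minimum count of 10, TMM, intercept-only quasi-likelihood fit, upper-tail F test against the trend, Benjamini-Hochberg over 9075 genes) and tested on simulated data, where it missed many large changes. DESeq2 1.42.0 supplied alternatives. Ratios of (count + 0.5) per kb in 10 pairs were tested with an exact sign-flip permutation test. Other steps used Python 3.11.15 with scipy 1.17.1, matplotlib 3.10.9, pandas 2.3.3 and numpy 2.4.6. Named genes were all members, the Celsr genes, pair genes and pathway genes averaging at least 10 CPM, with marker lists by sum and up to 3 markers; Cd55, Col3a1, C1ql1 to C1ql4, Tmem119 and the low levels quoted for markers serve as context. Members, pairs and the 14 marker and 7 pathway lists were chosen with earlier results of these data known. The result of 1 pathway list is not reported here.

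Of the other marker lists, summed CPM over the 4 libraries ranged from 165 to 951 for monocytes (with Nr4a1, also an early response gene), 42.3 to 55.2 for eosinophils, 0.295 to 33.1 for T and NK cells, 28.8 to 122 for B cells, 517 to 1875 for oligodendrocytes, 0.196 to 27.4 for their precursors, 23.3 to 102 for mural cells and fibroblasts, 12.5 to 37.1 for neurons and 449 to 2050 for ependyma and choroid plexus. Some of these sums were mostly 1 gene and are not levels of the cell type. Siglecf had 32.9 to 47.6 CPM in the eosinophil list and Il7r 0.196 to 26.0 CPM in the T and NK list. Cd79b had 18.3 to 79.8 CPM in the B cell list and Ttr 441 to 2008 CPM in the ependyma and choroid plexus list.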

Additional observations from a re-analysis of the deposited data

Results flagged for a closer look

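In 7 of 37 values examined, 1 library lay far from the other 3 by Dixon's gap test, which chance passes in about 1 of 20 groups of continuous values. A gene with reads in 1 library and 0 counts in the others must pass it. Adgra2, Adgrb2, Adgrb3, Adgrg2 and Celsr2 were such genes, and Adgrl1 came close to it. The number flagged can therefore not be set against that rate. Of the 6 receptors among them, Adgrb3 and Adgrg2 rest on 9 and 12 counts and the others on 53 to 95 counts in 1 library. Adgra2 had 2.35 CPM, Adgrl1 2.92 CPM and Celsr2 4.21 CPM in replicate 2, Adgrb3 0.386 CPM and Adgrg2 0.515 CPM in replicate 3, and Adgrb2 2.90 CPM in replicate 4, against 0 to 3 counts in each other library. The summed level of the 6 receptor desensitisation genes was 350 CPM in replicate 4, the lowest, against 600 to 645 CPM in the others. Adgrl2, at 0.196 CPM in replicate 4, did not pass this test because its other libraries were also spread.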

How the results depend on the processing

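The count of 4 members reaching 1 CPM throughout was also 4 at 0.5 or 5 CPM, under TMM or DESeq2 scaling and in replicates 1 and 4 alone, and 5 at more than 3 counts, where Adgrl2 joined. Leaving out 1 replicate gave 4 to 5, the higher without replicate 4. The summed family level stayed within 1130 to 1257 CPM under scaling, added Celsr genes, omitted replicates and replicates 1 and 4 alone (1255 CPM). No member passed the spread test under any alternative run, with 4 to 17 members tested. Pairs of 1 order numbered 6 to 8. The log2 ratio of Adgrg1 over Adgre1 ran from -1.56 to -0.15, and without single replicates from -1.56 to -0.95. Adgrl2 averaged 8.33 CPM without replicate 1 and 18.2 without replicate 4. The use of replicates 1 and 4 alone, GENCODE coding lengths, the cut at 3 counts and a bias-adjusted edgeR fit were chosen after seeing the data; the planned lengths from a protein table were not run. No paired analysis was possible because there is 1 group. Depth limits statements on members under 0.147 CPM.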
